A study of Amphimedon queenslandica and Mnemiopsis leidyi and Nematostella vectensis with 36 samples.

Results

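The DNA binding domain (DBD) of YY1 from the marine sponge Amphimedon queenslandica had 31759 peaks on sponge DNA, of 120443 peaks in the 16 binding lists of the series. They are all the peaks of 2 lists, 18619 from amplified DNA (ampDAP-seq) and 13140 from native DNA (DAP-seq), and each is a stretch of a numbered contig that the protein pulled down above background. A peak was called shared when it overlapped a peak of the other list by at least 1 bp, and ampDAP-only or DAP-only when it did not. In DAP-seq (DNA affinity purification sequencing) the protein is made by in vitro translation, fused to the HaloTag so that it can be captured, and mixed with genomic DNA fragments in a tube. Both libraries used DNA of 0 h swimming larvae, from Heron Island individuals, sheared to a mean of 200 bp, and the DNA recovered from the protein was copied for 20 PCR cycles. The ampDAP DNA had also been copied for 11 cycles before it met the protein, which leaves it without the cytosine methylation of the larvae, whereas the DAP DNA still carried it. The control for each was a library made with the HaloTag alone on the same kind of DNA. The protein is an isolated domain on naked DNA, so neither chromatin nor the rest of YY1 was present. There was 1 library on each kind of DNA, so no difference between them could be set against replicate error and none was tested.

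YY1 is a zinc finger protein that activates some genes and represses others in vertebrates, and its relative in flies recruits Polycomb proteins to DNA. Its fingers read a short site around the letters CCAT, and in mammals YY1 sites with a methylated CpG are known to be bound less well. The comparison of native with amplified DNA asks where removing methylation, together with whatever else amplification changes, goes with binding. The sequence under the peaks, its CpGs and the neighbouring genes were not analysed here.

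Depth was close between the libraries, with 2538983 usable fragments in ampDAP against 2306647 in DAP, and the controls held 2865511 and 2626764. A range in brackets after a share is its 95% interval by Wilson's method and reflects counting error alone. Fold enrichment, −log10 q and pileup (fragments stacked at the summit) are the authors' values for each peak. They come from different controls and depths and were used to rank peaks within a list, not as a measure of change between the DNAs.

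Of the ampDAP peaks 9178 were shared, 49.3% (48.58 to 50.01), and of the DAP peaks 9196, 70.0% (69.2 to 70.8). This left 9441 ampDAP-only and 3944 DAP-only peaks. Merging overlapping peaks gave 22508 regions, of which 41.9% were ampDAP only, 17.5% DAP only and 40.5% on both. The correspondence was nearly always 1 to 1, since 9109 of the shared ampDAP peaks met 1 DAP peak, 67 met 2 and 2 met 4. In base pairs, 45.7% of the ampDAP list and 63.2% of the DAP list were shared. The unequal shares went with the unequal lengths of the lists. When the ampDAP list was limited to its strongest 13140 peaks, 57.0% of ampDAP and 57.3% of DAP peaks had a partner. With only peaks of at least 5-fold enrichment kept in both lists, the shares were 21.5% of ampDAP and 66.9% of DAP peaks. This cut left lists of very unequal length, 9854 ampDAP and 3162 DAP peaks, which limits the ampDAP share. Against the full other list, 5559 of these ampDAP and 2703 of these DAP peaks had a partner.

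Peaks without a partner were weaker than shared ones in both lists. Their median −log10 q was 9.37 in the ampDAP list, against 15.8 for shared peaks, and 4.81 in the DAP list, against 7.53. Median fold enrichment was 4.81 for ampDAP-only peaks, against 5.58 for shared ones, and 3.78 for DAP-only peaks, against 4.31. A −log10 q of at least 20 was reached by 952 ampDAP-only peaks, 10.1%, against 23.7% of all ampDAP peaks. In the DAP list, where 2.88% of all peaks reached it, 6 DAP-only peaks did, 0.152% (0.0697 to 0.332). The scales of the lists thus differ, and these shares are to be read within each list. In the weakest decile of a list by −log10 q the shared part was 29.0% in ampDAP and 41.6% in DAP, and in the strongest decile 87.6% in ampDAP and 95.7% in DAP. Within the shared pairs the ranks of the lists went together loosely (Spearman's rho 0.54 for −log10 q over 9251 pairs, a description across regions that share their place on the genome).

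**Figure D1:**
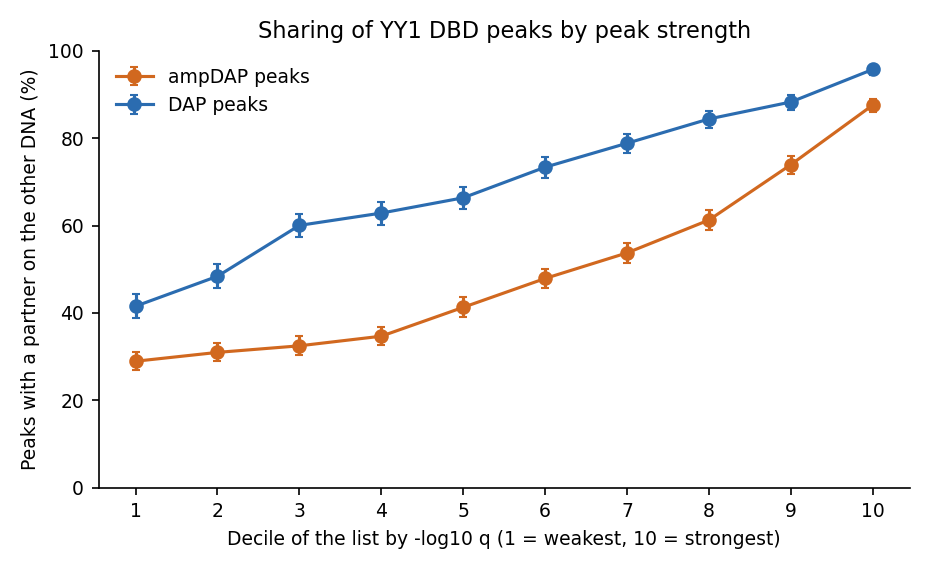
Percentage of YY1 DBD peaks with a partner on the other DNA in each decile of the ampDAP and DAP lists by −log10 q (1 weakest, 10 strongest), with 95% Wilson intervals. The DAP line lies above the ampDAP line in every decile, and the lines end at 87.6% for ampDAP and 95.7% for DAP.

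The top 10 peaks by −log10 q were largely the same on both DNAs, and the top 100 less so. All of the top 10 peaks of each list by −log10 q were shared, and 9 of each 10 had their partner in the top 10 of the other list. Of the top 100, 48 had their partner in the other top 100. The pairs ranked best in both lists began with neighbouring peaks on contig 11028. There the ampDAP peak at positions 135 to 1194 had rank 2, a pileup of 1235 fragments and 9.59-fold enrichment, and the DAP peak at 144 to 1169 had rank 1, 531 fragments and 5.20-fold. Next to it, the ampDAP peak at 1341 to 2822 had rank 1 with 1264 fragments and the DAP peak at 1336 to 2795 had rank 2 with 456. The background implied for that DAP peak, as defined below, was 77.2 fragments, against a median of 4.51 over the DAP list. High ranks by −log10 q can thus fall on stretches of high background. At contig 13448 the ampDAP peak at 307829 to 308147 reached 26.2-fold, the highest of its list, and the DAP peak at 307829 to 308131 reached 12.5-fold. It had rank 4 in both lists, and 9 of the 14 other lists of the series, those of GLI, NRF, SP41 and YY1 full length among them, also had a peak there. Contig 988 at 335 to 636 had rank 3 in ampDAP, with 13.2-fold enrichment, and rank 5 in DAP, with 7.11-fold at 360 to 603, and it met EGR, GLI, SP41 and YY1 full length. Contig 11639 had 8.16-fold in ampDAP at 29 to 689, rank 5, and 9.74-fold in DAP at 28 to 681, rank 3. YY1 full length had a peak there on both DNAs and no other factor did.

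The strongest ampDAP-only peaks were 215 to 232 bp wide, and all but 1 stood more than 1000 bp from any DAP peak. That at contig 13516, positions 214115 to 214329, had rank 136, 125 fragments and 10.5-fold enrichment, with an EGR peak on it and the nearest DAP peak 166 bp away. Contig 13482 at 273152 to 273372 had rank 227 and 11.2-fold, with no peak in any of the 14 other lists and 1744 bp to the nearest DAP peak. At contig 13375, positions 145664 to 145895, rank 250 and 13.4-fold went with a GLI peak. The peak at contig 13508, 482550 to 482781, had rank 274, 13.8-fold enrichment and peaks of EGR, SP41 and YY1 full length on native DNA. Contig 13517 at 666395 to 666617 had rank 288 and 13.6-fold, and here SP41 had a peak, and YY1 full length one on both DNAs. The last of these was 5323 bp from the nearest DAP peak of the DBD, so the full length protein had a native site where its own domain had none called.

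Among the strongest DAP-only peaks, 2 lay on contigs that had no ampDAP peak of the DBD. The strongest, on contig 13130 at positions 82431 to 82626, had rank 61, 95 fragments and 5.32-fold enrichment, and no other list had a peak there. The peak at contig 13243, 36812 to 37136, had rank 109 and 12.2-fold, the only DAP-only peak of at least 10-fold, and lay 729 bp from an ampDAP peak. It met a YY1 full length peak on native DNA. Contig 3336 at 858 to 1009 and contig 12272 at 7249 to 7411, with 5.02-fold and 5.10-fold, were those without any ampDAP peak on the contig, and no other list had a peak there. Contig 13185 at 89524 to 89767 had rank 226, 9.65-fold and peaks of EGR and SP41.

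Few of the unshared peaks were near misses of the overlap rule. Of the ampDAP-only peaks 189 had a DAP peak within 200 bp and 864 (9.15%) within 500 bp. Of the DAP-only peaks 121 and 525 (13.3%) had an ampDAP peak within those distances. A further 1131 ampDAP-only peaks (11.98%) and 404 DAP-only peaks (10.2%) lay on contigs where the other list had no peak at all. Elsewhere the median distance to the other list was 2828 bp for ampDAP-only and 1956 bp for DAP-only peaks.

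Peaks of the YY1 DBD were close in width to the shearing mean of 200 bp on both DNAs. The median width was 188 bp in ampDAP and 193 bp in DAP, with interquartile ranges of 162 to 239 bp and 165 to 253 bp. The narrowest peaks, 144 and 147 bp, equalled the fragment sizes given for these libraries, so the medians exceeded the size of the fragments sequenced. Unshared peaks were narrower: ampDAP-only peaks had a median of 172 bp, against 212 bp for shared ampDAP peaks, and DAP-only peaks one of 177 bp, against 202 bp. Peaks of 400 bp or more made up 2.64% of ampDAP-only and 9.83% of shared ampDAP peaks, and 2.81% of DAP-only and 8.06% of shared DAP peaks. Read the other way, 25.8% of ampDAP peaks under 160 bp were shared, against 87.9% of those of 500 bp or more. In DAP these shares were 54.9% and 92.6%.

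Although the ampDAP list was the narrower as a whole, its peak was the wider in 57.9% of the 9251 shared pairs (5355 pairs, with the DAP peak wider in 3806 and 90 equal). The median difference, ampDAP minus DAP, was 9 bp, with an interquartile range from −22 to 43 bp. Pairs were also sorted into quartiles by the worse of their ranks in both lists. In the quartile of pairs ranked best the median difference was 17 bp. In the lowest ranked quartile it was −7 bp, with the ampDAP peak the wider in 43.3% of pairs. The lists held 18619 ampDAP and 13140 DAP peaks, so ranks beyond 13140 belong to ampDAP peaks only. The lowest quartile thus selects weak ampDAP peaks, and its width difference cannot be told apart from this sorting.

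**Figure D2:**
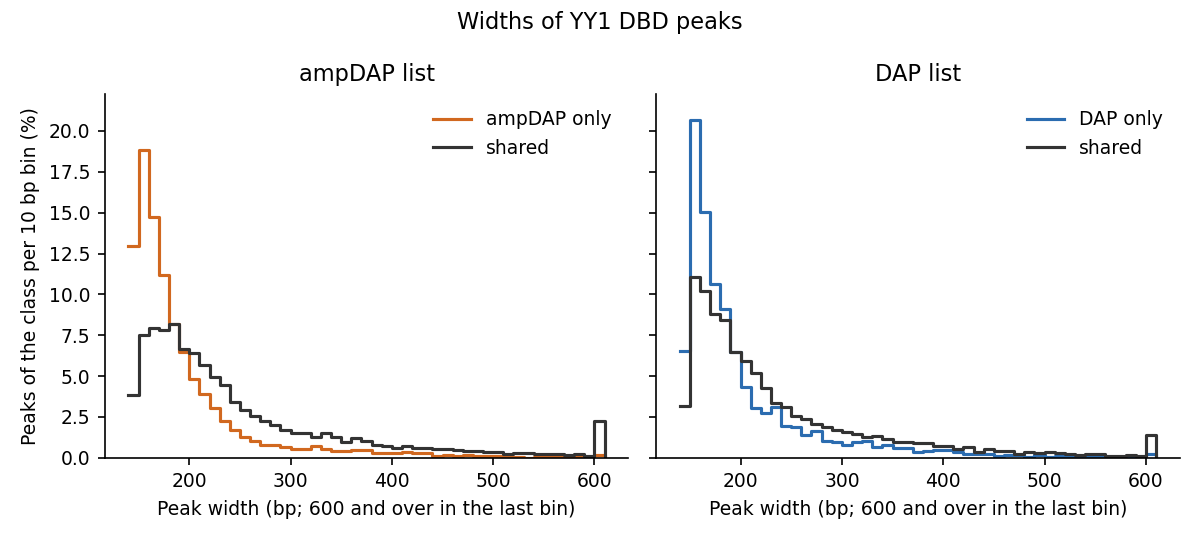
Width of YY1 DBD peaks in bins of 10 bp, as a percentage of each class, for the ampDAP list (left) and the DAP list (right). Unshared peaks crowd below 200 bp, with medians of 172 bp (ampDAP only) and 177 bp (DAP only), and shared peaks reach further right, with medians of 212 and 202 bp.

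The widest peaks often spanned several peaks of the other list. In ampDAP they were 2366 bp at contig 13255, positions 132599 to 134964, 1913 bp beside it at 130503 to 132415, and 1788 bp at contig 8925, 588 to 2375. Each of the peaks on contig 13255 spanned 4 separate DAP peaks and that on contig 8925 spanned 2. In DAP the widest was 1589 bp at contig 13363, 75935 to 77523, which spanned 3 ampDAP peaks and met no other list. The next were the 1460 bp peak on contig 11028 and one of 1300 bp at contig 13255, 132591 to 133890. Each of these last met 1 ampDAP peak. Where a wide peak spanned several, the lists divided a stretch differently, which the count of shared peaks does not show.

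Unshared peaks also lay on lower background. The background of a peak was taken as (pileup + 1) / fold enrichment − 1, in fragments. The lowest value was 2.20 in ampDAP and 2.04 in DAP, close to the 2.19 and 2.03 fragments that an even spread over the effective genome would give. Of the ampDAP-only peaks 17.5% (16.7 to 18.3) lay within 1% of that floor, against 7.98% of the shared ampDAP peaks. Among DAP-only peaks 18.3% (17.1 to 19.5) did, against 8.07% of the shared DAP peaks. The gap was also seen within quartiles by −log10 q. In the strongest quartile of the ampDAP list 66.7% of the peaks at the floor were shared and 77.8% of those above it. For DAP these shares were 81.6% and 91.1%. Strength was not equal inside these quartiles. In the strongest, −log10 q ran to 89.7 at the floor and 870 above it in ampDAP, and to 41.1 and 190 in DAP. Whether background plays a part in which peaks had a partner was not tested.

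Shared peaks mostly had their summits close together, though the overlap that defines a pair itself limits their distance. The median distance between the ampDAP and the DAP summit was 13 bp over 9251 pairs, with an interquartile range from 5 to 33 bp, short beside the peaks' width. Summits lay within 10 bp in 42.7% of pairs and within 50 bp in 83.3%, and 258 pairs had them on the same base. By contig coordinate, the ampDAP summit was the higher in 4558 pairs and the lower in 4435. The strand of the binding sites was not determined, so these counts cannot show whether summits shifted relative to the site. The distance was shorter where both peaks ranked high. Its median was 9 bp in the best ranked quartile of pairs, then 12, 15 and 24 bp. It was also longer in wide peaks, with a median of 12 bp where the wider peak was under 200 bp and 31 bp where it was 500 bp or more.

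**Figure D3:**
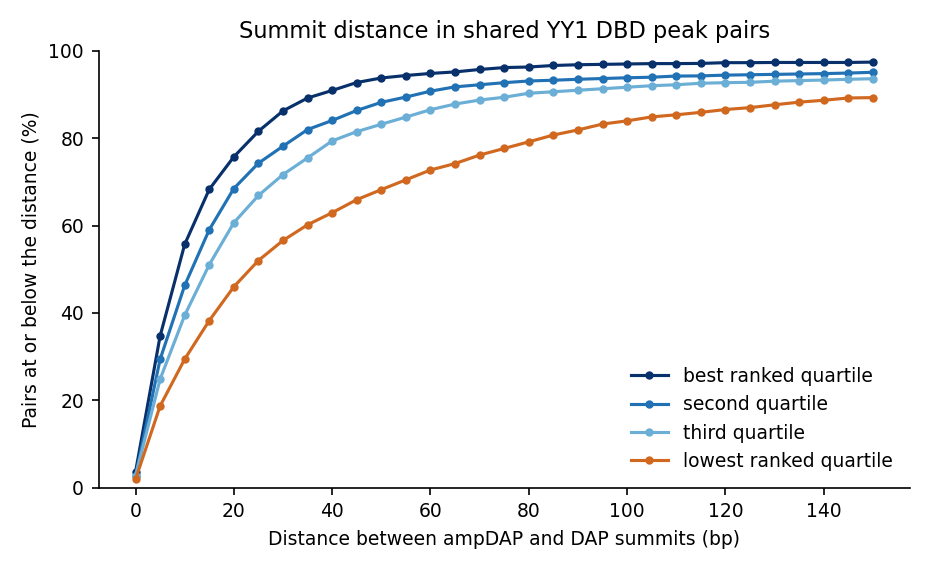
Cumulative percentage of shared YY1 DBD pairs by the distance between their ampDAP and DAP summits, in quartiles by the worse of the ranks in both lists. At 10 bp the best ranked quartile had reached 55.7% and the lowest ranked quartile 29.4%.

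Distances over 200 bp were found in 409 pairs, of which 213 had a peak of at least 500 bp and 131 belonged to peaks with more than 1 partner. Among pairs with 1 partner on each side the largest was 807 bp, at contig 13441, where the ampDAP peak ran from 242106 to 243169 with its summit at 242172, and the DAP peak from 242117 to 243193 with its summit at 242979. The interval was thus nearly the same and the tallest point lay at opposite ends. Contig 13476 followed with 771 bp and contig 13501 with 588 bp. On contig 11028 the pair that led the DAP list had its summits 447 bp apart, at 1003 in ampDAP and 556 in DAP, whereas its neighbour had them 4 bp apart.

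YY1 DBD peaks were spread along the contigs with some tight groups. Between neighbouring peaks of a list the median gap was 3475 bp in ampDAP and 4651 bp in DAP. Another peak of the same list lay less than 1000 bp away for 28.9% (28.2 to 29.5) of ampDAP peaks and 23.8% (23.1 to 24.5) of DAP peaks. With the ampDAP list limited to its strongest peaks, at equal length, the order turned round, and the shares were 22.3% in ampDAP and 23.8% in DAP. That step removed weak ampDAP peaks as well as shortening the list, and the parts of strength and length cannot be told apart. Among peaks of at least 5-fold the shares were 15.9% of 9854 ampDAP peaks and 7.24% of 3162 DAP peaks. With lists so unequal in length, this pair does not compare how tightly peaks were grouped. Among ampDAP-only peaks 27.2% had such a neighbour, against 30.6% of shared ampDAP peaks, and in DAP the shares were 23.4% and 23.9%. Being neighbours is mutual, so peaks are not independent in this measure, and whether the classes differ was not tested.

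Runs of at least 3 peaks with gaps under 1000 bp numbered 428 in ampDAP and 212 in DAP and held 7.70% and 5.37% of the peaks. The 29 ampDAP runs of at least 5 held 166 peaks, of which 54.2% were shared, against 49.3% of all ampDAP peaks. In DAP 12 such runs held 74 peaks, of which 93.2% were shared, against 70.0% of all DAP peaks. The runs named here were chosen after their values were seen. The longest in DAP, 10 peaks on contig 13255 at 129727 to 135560, met 4 ampDAP peaks, among them the widest of that list. On contig 13519 both lists had a run of 8, at 125367 to 129251 in ampDAP and 125368 to 129289 in DAP, and all of its peaks were shared. The longest in ampDAP, 10 peaks on contig 13452 at 7414 to 14864, had 3 shared peaks. On contig 13461 at 134184 to 139314, a run of 7 ampDAP peaks of up to 6.27-fold enrichment held no DAP peak, and neither did a run of 5 on contig 13522 at 1362128 to 1365783, with up to 8.90-fold.

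By contig, the excess of ampDAP peaks was general. The lists touched 3212 contigs, 1878 of them in common, with 955 in ampDAP alone and 379 in DAP alone, and these last held at most 6 and 3 peaks each. On the 146 contigs with at least 50 peaks in both lists together, ampDAP had more peaks on 142, fewer on 3 and as many on 1. The ratio of ampDAP to DAP peaks there had a median of 1.37 and quartiles of 1.22 and 1.53, around the 1.42 over all peaks. The 10 contigs with the most YY1 DBD peaks held 11.3% of the ampDAP and 12.1% of the DAP list, and 12.03% of the 82550 peaks of the other factors. Contig 13522 came first with 419 ampDAP and 281 DAP peaks, followed by 13521 with 253 and 196, 13519 with 210 and 185, 13517 with 211 and 149, and 13514 with 184 and 158. Up to the last position seen in any list, the 10 contigs carried 17.8 to 26.5 ampDAP and 12.6 to 21.5 DAP peaks per 100 kb. Chosen after their values were seen, the contigs with the highest ratio were 13406 with 50 ampDAP and 17 DAP peaks, 13326 with 43 and 18, and 13329 with 37 and 16. The lowest ratio was that of 13313, with 27 and 30.

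**Figure D4:**
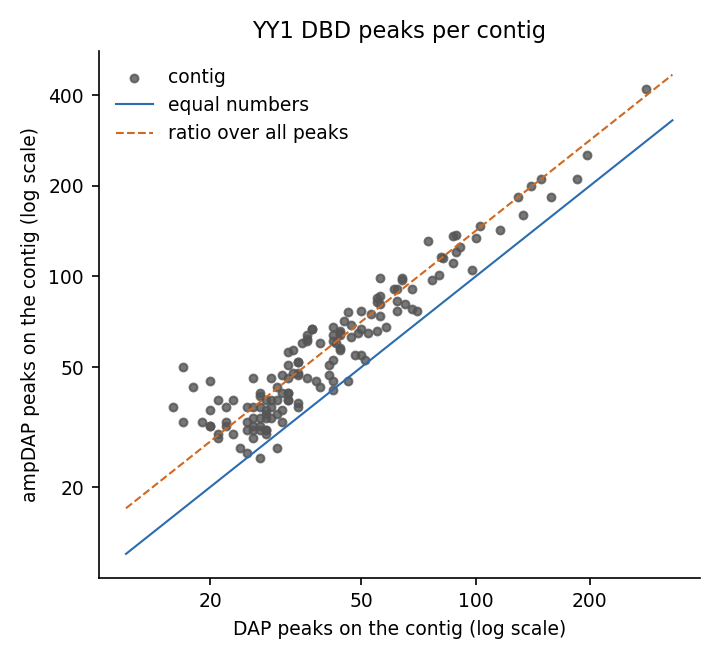
Number of ampDAP against DAP peaks of the YY1 DBD on each of 146 contigs with at least 50 peaks in both lists together, on log axes, with lines for equal numbers and for the ratio of 1.42 over all peaks. Nearly all contigs lie above the line of equal numbers, and 13406, with 50 ampDAP and 17 DAP peaks, lies farthest above it.

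Other factors of the series were found at under 1 in 3 YY1 DBD peaks, and more often at shared ones. A peak of NRF, EGR, GLI or SP41 on either kind of DNA overlapped 5600 ampDAP peaks (30.1%) and 4290 DAP peaks (32.6%). By class, 24.0% (23.1 to 24.8) of ampDAP-only peaks had another factor, against 36.4% (35.4 to 37.3) of shared ampDAP peaks. Among DAP-only peaks the share was 24.8% (23.4 to 26.1), against 36.0% of shared DAP peaks. In a stricter setting all lists, those of the other factors included, were cut to at least 5-fold and sharing was redrawn. This classed 7739 peaks as ampDAP-only, against 4295 ampDAP-only peaks of that enrichment in the full lists. Another factor then met 14.3% (13.6 to 15.1) of ampDAP-only and 17.8% (15.6 to 20.2) of DAP-only peaks. For shared ampDAP peaks it was 20.8% (19.1 to 22.6), an interval that overlaps that of DAP-only peaks. These shares are therefore not those of strong peaks in the classes above. In the full lists, at least 2 other factors overlapped 7.16% of ampDAP-only and 14.2% of shared ampDAP peaks. In DAP they overlapped 9.63% of DAP-only and 14.1% of shared peaks.

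SP41, a member of the Sp family of zinc fingers that bind GC-rich DNA in other animals, was the most frequent partner, from 4 pooled lists (full length and DBD), against 2 lists each for EGR and GLI. It met 15.98% of ampDAP-only and 17.1% of DAP-only peaks, against 25.4% of shared ampDAP peaks. EGR, a zinc finger protein known in vertebrates from early growth responses, met 7.12%, 9.10% and 12.9% of the same classes. GLI, which acts in Hedgehog signalling in other animals, met 7.59%, 8.70% and 12.8%. NRF, whose lists are the shortest, met 1.93%, 1.47% and 3.44%.

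**Figure D5:**
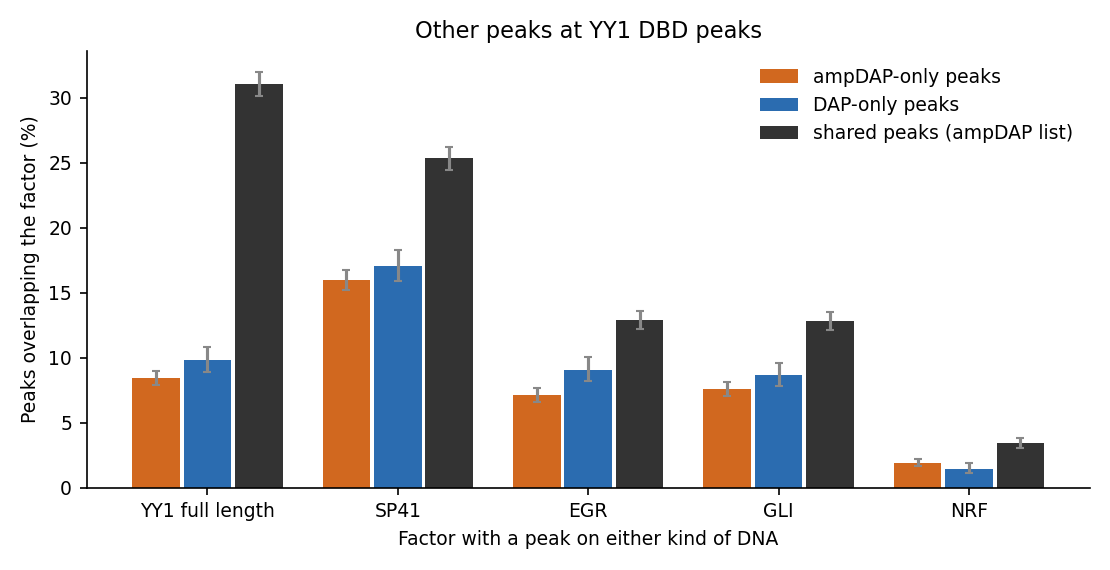
Percentage of ampDAP-only, DAP-only and shared YY1 DBD peaks (shared ones from the ampDAP list) that overlap a peak of YY1 full length, SP41, EGR, GLI or NRF on either kind of DNA, with 95% Wilson intervals. Shared peaks have the highest bar for each factor, 31.1% for YY1 full length at the top and 3.44% for NRF at the bottom.

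Split by the DNA of the other factors' lists, those from amplified DNA met 19.7% of ampDAP-only peaks and those from native DNA 14.1%. For shared ampDAP peaks the order was the other way, with 26.7% for amplified and 28.6% for native lists. Amplified lists met 13.8% of DAP-only peaks and native ones 21.3%, and for shared DAP peaks these shares were 26.2% and 28.5%, in the same order. EGR peaks from native DNA met 6.24% of ampDAP-only peaks and 8.80% of DAP-only peaks, and EGR peaks from amplified DNA met 4.10% and 2.81%. The share over all ampDAP and all DAP peaks was 9.18% and 11.2% for native EGR peaks and 5.20% and 5.18% for amplified ones. For GLI, native peaks met 4.53% of ampDAP-only and 8.04% of DAP-only peaks, and amplified peaks 4.93% and 1.77%. Native GLI peaks met 7.396% of all ampDAP and 9.66% of all DAP peaks, and amplified ones 5.26% and 4.35%. SP41 peaks from native DNA met 6.96% of ampDAP-only and 13.1% of DAP-only peaks, and those from amplified DNA 14.4% and 11.5%. Over all ampDAP and all DAP peaks, native SP41 peaks met 12.1% and 16.1%, and amplified ones 17.6% and 17.7%. The factors' lists differ in number and length, and each kind of DNA had a single control library for all of them. The part of either in these overlaps was not tested.

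Strength and width moved with co-binding. In ampDAP the share with another factor was 22.0% in the weakest and 41.1% in the strongest quartile by −log10 q, and in DAP 23.9% and 45.1%. Within the strongest ampDAP quartile it was 31.3% (28.6 to 34.2) for ampDAP-only and 44.0% (42.4 to 45.7) for shared peaks, and within the weakest 19.7% and 27.1%. Within the strongest DAP quartile it was 40.0% (34.7 to 45.6) for DAP-only and 45.6% (43.8 to 47.4) for shared peaks, whose intervals overlap. The unshared peaks of a quartile were also narrower, with medians of 202 bp for ampDAP-only and 234 bp for shared ampDAP peaks in the strongest. Asking only whether another factor's peak covered the YY1 DBD summit, which takes the width of the YY1 peak out, gave 19.0% for ampDAP-only and 18.4% for DAP-only peaks, against 29.1% for shared ampDAP peaks.

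Of the 9251 shared pairs 33 met all 4 other factors, while 4106 met no other list of the series at all. Peaks that met no other list made up 45.4% of shared ampDAP peaks, against 57.9% of all ampDAP peaks. In DAP these shares were 45.7% and 52.1%. Peaks that met all 4 other factors made up 0.349% of shared and 0.199% of all ampDAP peaks, and 0.337% and 0.251% in DAP. The best ranked pair with all 4 lay on contig 12932, with 6.15-fold enrichment in ampDAP at 1459 to 1748 and 4.52-fold in DAP at 1463 to 1746, at ranks 7 and 6, and 10 of the 14 other lists had it. Contig 13495 at 260309 to 260541 in ampDAP and 260334 to 260566 in DAP followed, at 7.80-fold and 8.71-fold. Next came contig 13505 at 584918 to 585240 in ampDAP, with 11.6-fold against 6.24-fold in DAP, and contig 11761 at 11434 to 11799, with 3.31-fold against 3.76-fold. On contig 13447, at 42437 to 42965 in ampDAP, the summits of both lists were on the same base and 11 other lists had a peak.

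Several strong pairs belonged to the YY1 DBD alone. The best ranked was on contig 12843, at rank 9 in both lists, with 11.8-fold enrichment in ampDAP at 5981 to 6225 and 5.53-fold in DAP at 5990 to 6228. Its summits were 6 bp apart. Contig 6211 came next with 6.76-fold in ampDAP at 63 to 289 and 5.35-fold in DAP at 58 to 250. Contig 12447 had 8.22-fold at 20924 to 21087 in ampDAP and 7.17-fold at 20919 to 21089 in DAP, contig 12650 had 6.21-fold and 3.93-fold, and contig 130 had 5.21-fold and 3.36-fold. None of these had a peak of YY1 full length either.

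YY1 full length, the entire protein in the same assay, had far fewer peaks, 1606 in ampDAP and 4528 in DAP, and they fell mainly on shared DBD peaks. They overlapped 3649 ampDAP peaks (19.6%) and 3244 DAP peaks (24.7%) of the DBD. By class this was 8.44% (7.90 to 9.02) of ampDAP-only and 9.84% (8.95 to 10.8) of DAP-only peaks, against 31.1% of shared ampDAP peaks. Here too the shares were higher among strong peaks. In the strongest quartile they were 18.5% for ampDAP-only and 47.4% for shared ampDAP peaks, and 14.4% for DAP-only and 47.4% for shared DAP peaks. The classes were not matched inside it. In ampDAP, −log10 q ran to 870 for shared and 80.6 for ampDAP-only peaks, with median widths of 234 and 202 bp. The part of strength or width in these shares was not tested.

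Seen from the full length protein, 66.6% of its ampDAP peaks and 60.8% of its DAP peaks fell on regions the DBD held on both DNAs. A further 20.2% (18.3 to 22.3) of its ampDAP peaks met the DBD on amplified DNA only, and 1.56% (1.06 to 2.29) on native DNA only. Its DAP peaks met the DBD on amplified DNA only in 15.0% (13.94 to 16.02), which is 677 peaks, and on native DNA only in 8.52% (7.75 to 9.37), which is 386 peaks. Full length peaks from amplified DNA met 23 of the 3944 DAP-only peaks of the DBD, 0.583%, against 3.35% of ampDAP-only peaks. Over all DBD peaks they met 8.30% in DAP and 7.44% in ampDAP. Full length peaks from native DNA met 9.71% of DAP-only and 7.08% of ampDAP-only peaks. Over all DBD peaks these met 23.8% in DAP and 18.3% in ampDAP.

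Beside the other 7 constructs, the YY1 DBD lay within the range in summit distance and came second in the share of pairs with the wider peak in ampDAP. The median summit distance of shared pairs was 6 bp for NRF full length at the low end and 19 bp for GLI and the SP41 DBD at the high end, with the YY1 DBD at 13 bp. The ampDAP peak was the wider in 57.9% of YY1 DBD pairs and 63.3% of SP41 full length pairs, and in 15.3 to 46.6% of the pairs of the other 6 constructs. For YY1 full length it was 24.6%. With 1 pair of lists per construct this order was not tested.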

How the data were processed

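Of the 36 samples of the series the peak lists of 16 binding libraries were used, and other samples were not analysed here. Each list was made by the authors with MACS 2.1.2, run on read pairs with q set to 0.05 and at most 1 duplicate kept, per the file headers. Per the file headers, HaloTag-only DNA of the same kind served as control, the larger library was randomly down-sampled, and local background was taken over 1000 and 10000 bp. Both YY1 DBD libraries were smaller than their control, so down-sampling touched the control. Per the file headers, pileup is a coverage signal in fragments, the deposited p-value and q-value columns hold −log10 values, and fold enrichment is a ratio to local background. Per the file headers, positions and lengths are deposited in bp as other values, counted from 1. The submitters' processing notes list Bowtie2 and Bowtie among the tools without a role for either, and which of them aligned these reads, and to which genome build, are not given in the sources used here. The headers name merged alignments as input, without saying what was merged. The peak names in the DAP list carry another run letter than those in the ampDAP list, with no meaning given.

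Peaks were compared by overlap of at least 1 bp on the same contig, with pairs counted once per overlapping couple. No test was made, since each DNA had 1 library. Sequence results that had been planned could not be run without a genome. Regions were named by rules: the 5 pairs with the best worse rank, the 5 strongest unshared peaks and 3 widest peaks per list, the 3 largest summit distances, the 5 contigs with most peaks, and the 5 best pairs with all other factors or none. Regions outside these rules are marked in the text. The region lists, rules and measures were chosen with earlier results of these data known. The overlap code recovered planted shares in 3 simulated sets, and 30 of 30 counts equalled those of bedtools 2.31.1. Python 3.11.15, numpy 2.4.6, pandas 2.3.3, scipy 1.17.1 and matplotlib 3.10.9 were used.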

Additional observations from a re-analysis of the deposited data

Results flagged for a closer look

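The peak numbers of the YY1 constructs differed in opposite directions between the DNAs. The log2 ratio of ampDAP to DAP peak numbers was 0.50 for the DBD and −1.50 for the full length protein. Each construct had 1 library on each DNA, so the difference was not tested. The DBD had 2538983 usable fragments in ampDAP against 2306647 in DAP, and full length YY1 2842290 against 2449481.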

How the results depend on the processing

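Under 11 alternatives for 9 results, 15 of 62 values stayed within the counting interval of the reported one. The width difference, the one result that could change sign, stayed positive. No paired analysis was possible because each DNA had 1 library. Shares are given as percentages. The share of ampDAP peaks with a DAP partner was 40.9 at a −log10 q of at least 5, 21.5 at 5-fold or more, 44.5 with 50% reciprocal overlap, 41.4 with summits within 50 bp, 57.0 with lists of equal length and 48.5 without the 10 fullest contigs. For DAP peaks with an ampDAP partner the first 5 gave 76.6, 66.9, 63.1, 58.7 and 57.3. The median summit distance was 11, 10 and 12 bp at the −log10 q, the fold and the equal length setting, and the width difference 7 bp at 5-fold and 14 bp with equal length. The share with a neighbour within 1000 bp was 26.99 in ampDAP and 18.4 in DAP at a −log10 q of at least 5, 15.9 and 7.24 at 5-fold or more, and 27.9 and 22.6 without the 10 contigs. It was 14.8 and 12.1 at 500 bp and 73.5 and 64.6 at 5000 bp. With equal length it was 22.3 in ampDAP, below the 23.8 in DAP. Co-binding, in the order ampDAP-only, DAP-only and shared ampDAP peaks, was 14.3, 17.8 and 20.8 at 5-fold or more. It was 19.7, 21.3 and 26.7 with lists of the same DNA, 18.3, 17.0 and 29.8 with the other summit inside the peak, and 24.9, 26.3 and 37.4 where sharing needed summits within 50 bp. An alternative chosen after seeing the data, a peak over the YY1 DBD summit, gave 19.0, 18.4 and 29.1. At a −log10 q of at least 5 it was 20.8 for ampDAP-only and 32.7 for shared peaks, with equal length 26.96 and 38.5, and with reciprocal overlap 26.2 for DAP-only peaks. Shared peaks had the highest share in all 9 settings that bear on co-binding. The cause of these shifts was not tested. A stricter threshold also removed possible partners from the other list, so some peaks shared in the full lists counted as unshared. It was applied to the lists of the other factors as well. The 5-fold lists held 9854 ampDAP and 3162 DAP peaks. Depth limits what absence means: a missing peak is a region below the q cutoff, and weak peaks can enter or leave a list with the random down-sampling.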

Other observations

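On contig 11028, which holds the strongest YY1 DBD peaks of both lists, the full length protein had several smaller peaks in the same stretch. It had 3 ampDAP peaks, at 243 to 648, 918 to 1074 and 1411 to 1604, of 1.76, 1.79 and 2.29-fold. In DAP it had 4 peaks between 201 and 2096, of 3.02, 3.07, 4.24 and 2.24-fold. The DBD reached 9.59 and 12.2-fold there in ampDAP and 5.20 and 5.84-fold in DAP. The implied background was 77.2 fragments under the DAP peak at 1336 to 2795, against a median of 4.51 over the DAP list. These full length peaks were looked up after the DBD values were seen.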
